A study of Mus musculus with 6 samples.

Results

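Axon guidance genes encode secreted or membrane-bound cues and the receptors that read them. They were followed here in cultured muscle precursor cells that had or had not received a short hairpin RNA (shRNA) against the long non-coding RNA LncMyoD. Members were chosen by gene symbol alone: the semaphorins, plexins, ephrins and Eph receptors, the Unc5 prefix, and 16 listed genes of the neuropilin, Slit, Robo, netrin, Dcc, neogenin and Rgm families. This gave 73 of 18194 genes with a named probe set, on 167 of the array's 45101 probe sets. The prefixes also caught Unc50, Unc5cl and the antisense transcript Plxna4os1, which are not known as guidance genes, so 70 guidance genes remained. Of the 73 members 54 could be tested, and 19 lay among the lowest 40% of probe sets and were left out of the main test.

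The samples were primary mouse myoblasts, labelled 21 days old: 3 control samples and 3 given the LncMyoD shRNA, each on its own array. The shRNA was delivered by lentivirus in a Tet-pLKO-puro vector. The design text can be read as naming a control shRNA, but no source used here describes it. The labels also do not say how many hairpins were used, whether the inducible vector was switched on, or in which of the described growth and differentiation media the profiled cells stood. The labels call the replicates biological, without naming separate animals or cultures, so a p-value covers only how these arrays varied, and that variation may be technical. LncMyoD itself was not analysed here, and the groups rest on the labels.

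Guidance cues steer growing axons and also move, separate or attach other cells. Semaphorins signal through plexins, with neuropilins as co-receptors for most of the secreted class 3. Ephrins are anchored to the membrane and meet Eph receptor tyrosine kinases on neighbouring cells, and both sides can signal. Slits bind Robo receptors, netrins bind Dcc, neogenin (Neo1) and Unc5 receptors, and Rgm proteins bind neogenin and act as co-receptors for bone morphogenetic proteins. In muscle, satellite cells are known to secrete Sema3a, which acts on motor nerve endings, neogenin has a known part in myotube formation, and ephrins guide migrating muscle precursors.

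All values are log2 signals of single probe sets, so a difference of 1 is a 2-fold change, and levels of different genes are not compared. A gene is represented by its brightest probe set, with those ending in _x_at used only where there was no other. "Rose" and "fell" mean higher or lower in the shRNA samples with an adjusted p under 0.05 in limma, a linear model fitted over all 27022 tested probe sets. Errors after ± are SDs over 3 arrays. By this rule 58.5% of all 12408 tested genes passed (35.7% higher, 22.8% lower), so passing the threshold is common in this comparison. The correlation of 2 arrays was 0.996 to 0.997 within a group and 0.987 to 0.990 across groups. RNA integrity was read from the 3' to 5' ratio of control probe sets. For actin it was 0.51 ± 0.018 in controls and 0.55 ± 0.017 in shRNA samples on the log2 scale. For GAPDH it was 0.14 ± 0.045 and 0.23 ± 0.038. Both had p = 0.1 in a two-sided exact permutation test, which cannot go lower with 20 assignments, and the part of RNA integrity in the results was not tested.

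Muscle genes were present in every sample. All 10 listed muscle markers passed the filter, 3 rose and 3 fell. Myf5 rose by 0.62, Pax7 by 0.66 and Cdh15 by 0.40. Myog fell by 0.13, Acta1 by 0.088 and Ckm by 1.41. The control and shRNA means were 13.80 and 13.82 for Myod1 and 13.22 and 13.26 for Des. The 10 markers' summed linear signal was 106480 to 112111 in controls and 106912 to 111010 in shRNA samples. The brightest, such as Mylpf with means of 14.47 and 14.49, add most to it and lie near the highest value on any array (14.6). The sum therefore says little about dimmer markers such as Ckm. Guidance genes are also known from nerve, glia and vessel. Of 10 neuron markers 8 lay below the filter, including Snap25, Syt1 and Elavl4, while Tubb3 fell and Nefl rose. The control mean of Nefl was 6.48, below the lowest tested mean. The list's summed linear signal was 935 to 963 in controls and 867 to 954 in shRNA samples. Of 10 endothelial markers 8 lay below it, including Pecam1, Cdh5, Kdr and Tek. Erg fell, and the summed signal was 1079 to 1131 in controls and 974 to 1100 in shRNA samples. Of the 6 Schwann cell markers with a named probe set, Sox10, Mbp and Foxd3 lay below the filter, whereas Erbb3 and Pmp22 fell. S100b, at 6.71 and 6.61, did not pass (adjusted p = 0.508). The summed signal of the 6 was 14747 to 15253 in controls and 9339 to 9660 in shRNA samples. Erbb3, the brightest, stood at 13.49 and 12.67. Fibroblast markers summed to 738 to 777 and 743 to 799, and leukocyte markers to 486 to 518 and 486 to 568. Within these lists Pdgfra rose by 0.89, Col1a1 and Col1a2 fell by 0.42 each, and Cd68 rose by 0.33 from a control mean of 6.40, below the lowest tested mean. Adipocyte markers, with 4 of 4 below the filter, summed to 194 to 207 and 187 to 226. Pericyte and smooth muscle markers, led by Acta2, summed to 29517 to 30907 and 30788 to 31480, and none of the 5 tested passed the threshold. The part of other cell types in the results was not tested. In these bulk samples, fewer cells of a type and less RNA per cell cannot be told apart.

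Of the 54 tested members, 25 were past the threshold upward, 10 downward and 19 not at all. By probe set, 48 of 105 tested rose and 16 fell, where 30.4% and 23.5% of all 27022 did (53.9% in all). The called share was 64.8%, near the 58.5% of all tested genes. The arrays of the groups did not overlap in 37 of the 54 members (68.5%), near the 64.8% of all tested genes. The sizes lay further from all genes than the count did. At least 2-fold differences were found in 8 of 54 members (14.8%), against 3.77% of all tested genes (2.18% higher and 1.6% lower). Those higher were Efna2, Unc5c, Epha2, Sema4d, Sema6b, Efnb2 and Ntn4, and Sema7a was lower. With the probe sets of each gene averaged, 5 members (9.26%) and 3.38% of all genes were past 2-fold. A difference of 0.5 or more on the log2 scale was reached by 37.0% of members and 17.8% of all genes. The median difference was 0.11 for the members and 0.046 for all genes. By role, 14 of 31 tested ligands rose and 6 fell, and 11 of 22 receptors rose and 4 fell. Members entered through a filter on the mean of all arrays, so these counts describe the brighter members.

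**Figure D1:**
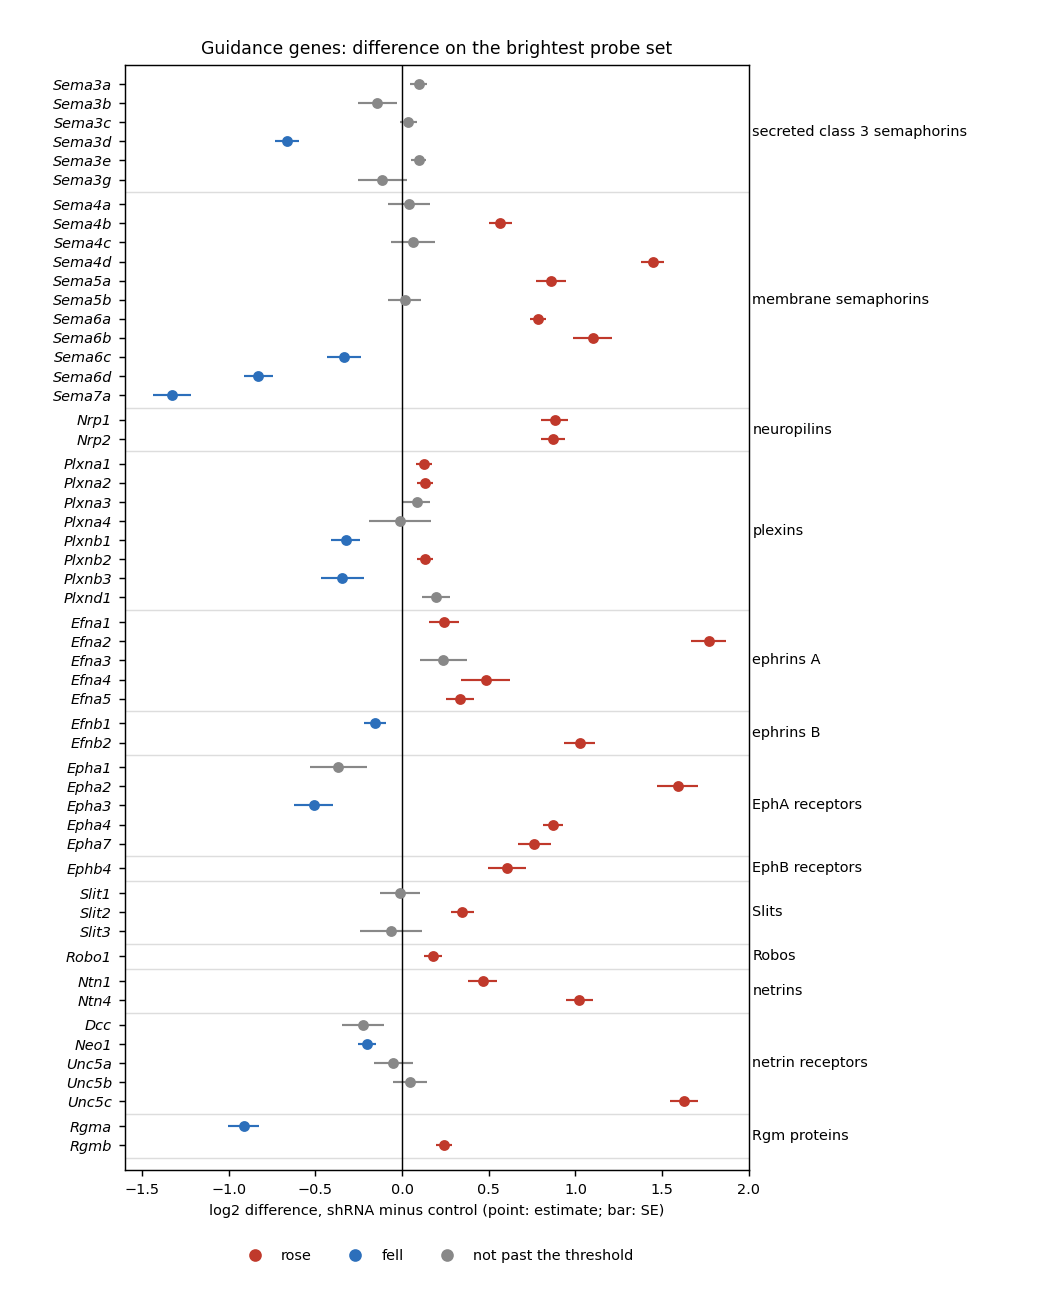
Log2 difference, shRNA minus control, for the 53 tested guidance genes in 13 subfamilies, with limma's standard error as the bar. Red points rose, blue points fell and grey points did not pass the threshold; Efna2 (1.77) lies furthest right and Sema7a (-1.33) furthest left.

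**Figure D2:**
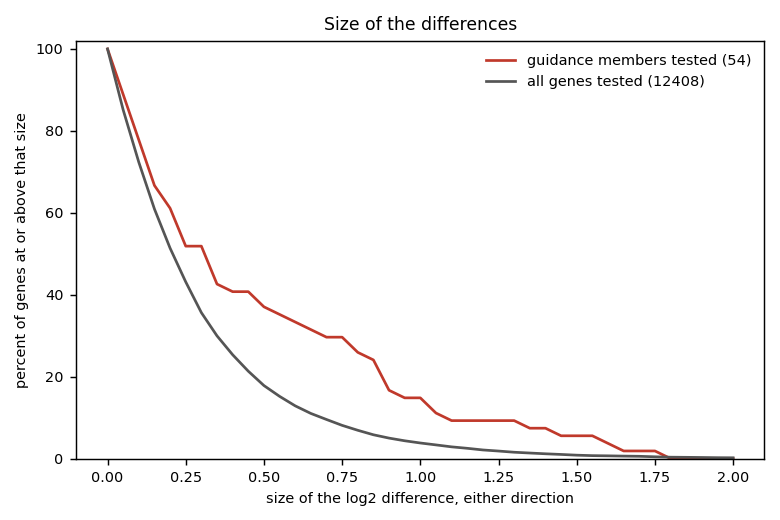
Share of genes whose log2 difference was at least the size on the x axis, in percent, for the 54 tested members (red) and all 12408 tested genes (grey). At a size of 1 the lines stand at 14.8% and 3.80%, the latter counted without the test's threshold.

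Of the 5 tested Eph receptors of the A class, 3 rose, 1 fell and 1 did not pass. The receptor Epha2 stood at 9.37, 9.06 and 8.74 in the controls and at 10.57, 10.70 and 10.67 in the shRNA samples. The groups did not overlap, and the controls were more spread out than the shRNA arrays. Epha2 rose by 1.59 (SE 0.12), or 3.01-fold (adjusted p = 1.81e-07). Its promoter is shown as the receptor with the largest increase among Eph genes. The 250 bases before the annotated start, chr4:141300971-141301220 on the plus strand of GRCm38.p6 (RefSeq), hold a single palindrome TGACGTCA, the letters of a cyclic AMP response element, in capitals.
Epha2: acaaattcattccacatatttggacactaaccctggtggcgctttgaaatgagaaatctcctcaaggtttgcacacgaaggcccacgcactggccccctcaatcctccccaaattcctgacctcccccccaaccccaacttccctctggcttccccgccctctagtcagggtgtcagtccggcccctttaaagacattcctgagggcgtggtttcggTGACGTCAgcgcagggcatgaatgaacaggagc

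Epha4, a receptor for ephrins of both classes, stood at 9.77, 9.74 and 9.59 in controls and at 10.55, 10.57 and 10.59 in shRNA samples. It rose by 0.87 (SE 0.060, adjusted p = 1.01e-07), and its 2 other tested probe sets rose by 0.60 and 0.61. Epha7, a receptor for ephrins of the A class, stood at 8.05, 7.92 and 8.04 in controls and at 8.69, 8.66 and 8.95 in shRNA samples. It rose by 0.76 (SE 0.097, adjusted p = 2.31e-05), with 0.82 on its second probe set. Epha3 went the other way. Its values were 7.99, 7.94 and 8.20 in controls and 7.66, 7.36 and 7.59 in shRNA samples, and it fell by 0.51 (SE 0.11, adjusted p = 0.00188), with -0.67 on its other probe set. No array of these 3 receptors overlapped the other group. Epha1 did not pass (-0.37, adjusted p = 0.0761), with an shRNA mean of 6.45, below the lowest tested mean of 6.50. Its p fell under the threshold without shRNA replicate 2 (-0.52, adjusted p = 0.0214) and with the arrays centred (-0.43, 0.0477).

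Ephrins of the A class are held by a lipid anchor and bind mainly EphA receptors. Efna2 had the largest difference of all members. It stood at 7.21, 7.04 and 7.37 in controls and at 8.92, 9.00 and 9.00 in shRNA samples, and rose by 1.77 (SE 0.10), or 3.41-fold (adjusted p = 1.86e-08). Efna5, which repels migrating muscle precursors through Epha4, was at 10.01, 9.71 and 9.68 in controls. In shRNA samples it was at 10.17, 10.19 and 10.04, without overlap, a rise of 0.33 (SE 0.083, adjusted p = 0.00437). Efna4 rose by 0.48 (SE 0.14, adjusted p = 0.0116) from 6.57, 6.73 and 6.25 to 7.14, 6.97 and 6.88. That call was lost without control replicate 3 (0.35, adjusted p = 0.0601). Efna1, a ligand of Epha2, rose by 0.24 (SE 0.086, adjusted p = 0.0312). It did not pass without control replicate 2 (0.22, 0.0855) or shRNA replicate 2 (0.16, 0.171), nor with the arrays centred (0.18, 0.0969) or quantile-normalized (0.19, 0.0830). Efna3 was at 7.32 ± 0.13 and 7.55 ± 0.27 and did not pass (adjusted p = 0.162). It passed without shRNA replicate 1 (0.39, 0.0191).

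Ephrins of the B class span the membrane and signal in the cell that carries them. Efnb2, the partner of Ephb4, stood at 10.42, 9.98 and 10.07 in controls and at 11.23, 11.10 and 11.22 in shRNA samples. It rose by 1.02 (SE 0.091), or 2.03-fold (adjusted p = 9.29e-07). Of its other probe sets, 2 also rose (1.15 and 0.87), while 1449549_at fell by 0.48 (SE 0.18, adjusted p = 0.0384) with overlapping arrays. Ephb4 rose as well, from 7.64, 7.65 and 7.39 to 8.33, 8.09 and 8.07, by 0.61 (SE 0.11, adjusted p = 0.000490). Efnb1 fell slightly, from 10.78 ± 0.084 to 10.62 ± 0.096 (-0.16, SE 0.061, adjusted p = 0.0464). Its 2 other tested probe sets did not pass. The call of Efnb1 was also lost without control replicate 2 (-0.18, 0.0535) or 3 (-0.11, 0.181), and without shRNA replicate 1 (-0.11, 0.197) or 2 (-0.15, 0.101). The promoter of Efnb2 is shown because this pair rose on both sides. Its 250 bases before the start, chr8:8661243-8661492 on the minus strand of GRCm38.p6 (RefSeq), hold 1 match to CANNTG, the E-box read by myogenic factors, in capitals. Promoters of Efna2, Unc5c and Ntn4, which also rose at least 2-fold, hold no match to CANNTG or TGACGTCA and are not printed.
Efnb2: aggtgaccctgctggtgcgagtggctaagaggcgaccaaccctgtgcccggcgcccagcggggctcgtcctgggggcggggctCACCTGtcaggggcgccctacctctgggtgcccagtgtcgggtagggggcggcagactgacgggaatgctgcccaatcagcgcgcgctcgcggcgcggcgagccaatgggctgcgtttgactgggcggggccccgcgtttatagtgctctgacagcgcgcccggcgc

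Semaphorins that stay on the membrane moved in both directions: 5 of 11 rose, 3 fell and 3 did not pass. Sema4d, a ligand of B-type plexins, stood at 8.97, 8.85 and 8.92 in controls and at 10.29, 10.40 and 10.38 in shRNA samples. The groups were tight and far apart, and it rose by 1.44 (SE 0.064), or 2.72-fold (adjusted p = 3.03e-09). This rests on a single tested probe set. Dimmer Sema4d probe sets left out by the filter had control and shRNA means of 6.39 and 6.44 (1434596_at) and of 6.18 and 6.10 (1420823_at). Sema6b, a ligand of A-type plexins, rose by 1.10 (SE 0.11), or 2.14-fold (adjusted p = 3.57e-06). It stood at 8.02, 8.21 and 7.72 in controls and at 9.11, 9.00 and 9.15 in shRNA samples. Its relatives split: Sema6a rose (0.78, SE 0.046, with 0.81 and 0.90 on 2 further probe sets), while Sema6c (-0.33, SE 0.099) and Sema6d (-0.83, SE 0.082) fell. The 2 other tested Sema6c probe sets did not pass (-0.43, adjusted p = 0.0932, and -0.19, 0.172). Sema6d was at 9.32, 9.48 and 9.50 in controls and at 8.54, 8.73 and 8.54 in shRNA samples, and its other tested probe set fell by 0.41. Sema5a rose by 0.86 (SE 0.088) and Sema4b by 0.57 (SE 0.067), without overlap. Sema4c, which has been studied in differentiating myoblasts, was at 9.70, 9.58 and 9.63 in controls. In shRNA samples it was at 9.54, 9.47 and 10.10, with the third array above all others and the first 2 below the controls. Its difference was 0.064 (SE 0.13, adjusted p = 0.705). Sema4a and Sema5b did not pass.

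Sema7a, the lipid-anchored semaphorin that binds integrins and Plxnc1, had the largest decrease. It stood at 8.28, 8.42 and 8.41 in controls and at 6.92, 6.95 and 7.24 in shRNA samples. It fell by 1.33 on the log2 scale (SE 0.11), a 2.51-fold difference (adjusted p = 5.04e-07). A second, dimmer probe set near the filter, 1422040_at, had means of 6.52 and 6.53 (adjusted p = 0.950), so the decrease rests on a single probe set. The promoter of Sema7a is shown as that of the member that fell most. Its 250 bases before the start, chr9:57939862-57940111 on the plus strand of GRCm38.p6 (RefSeq), hold 1 E-box, in capitals, in the form CAGCTG that MyoD binds well.
Sema7a: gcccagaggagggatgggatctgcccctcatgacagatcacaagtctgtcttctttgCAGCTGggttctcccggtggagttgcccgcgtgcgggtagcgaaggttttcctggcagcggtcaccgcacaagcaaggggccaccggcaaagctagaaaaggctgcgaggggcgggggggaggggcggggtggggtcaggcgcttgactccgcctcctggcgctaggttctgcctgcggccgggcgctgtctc

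**Figure D3:**
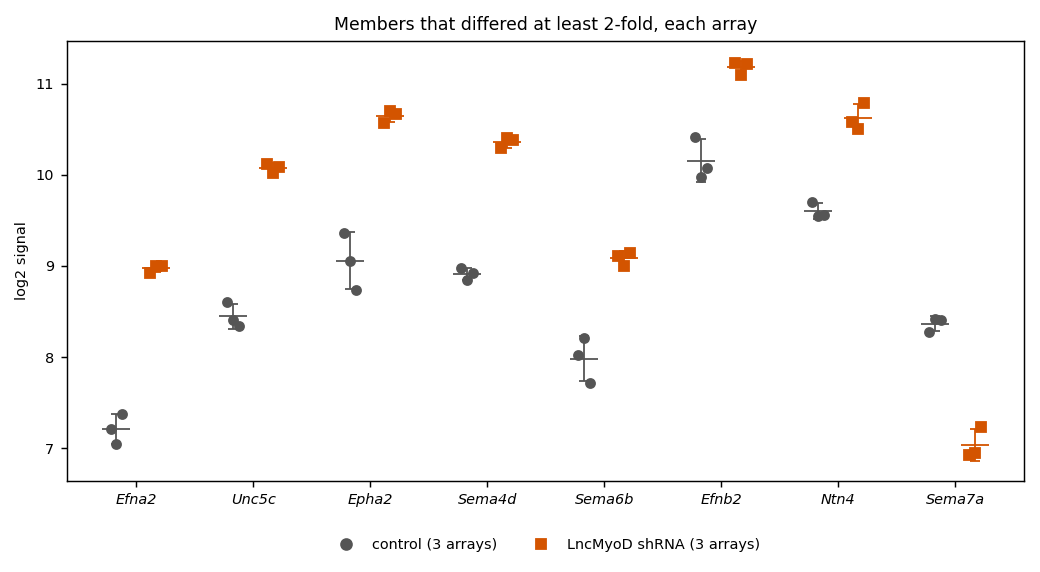
Log2 signal of each array for the 8 members that differed at least 2-fold, controls as grey circles and LncMyoD shRNA samples as orange squares, with the mean and SD as bars. In none of the 8 do the groups overlap, which also holds for 64.8% of all tested genes. Efna2 has means of 7.21 and 8.98 and Sema7a of 8.37 and 7.04.

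Of the secreted class 3 semaphorins, 1 of 6 tested genes was past the threshold. Sema3d fell from 11.11, 10.93 and 10.94 to 10.21, 10.44 and 10.33, by 0.67 on the log2 scale (SE 0.068, adjusted p = 3.16e-06), and by 0.53 on its other probe set. Sema3a, the cue that repels motor axons, was at 11.32, 11.30 and 11.37 in controls and at 11.39, 11.52 and 11.37 in shRNA samples. The groups touched without overlapping, and the difference of 0.097 (SE 0.049) did not pass (adjusted p = 0.113), nor did those of its 2 other probe sets. Sema3c had means of 11.87 ± 0.093 and 11.90 ± 0.033 (adjusted p = 0.563). Sema3b and Sema3g did not pass either. Sema3e, a ligand of Plxnd1, gave different answers on different probe sets. The brightest stood at 12.66 ± 0.062 and 12.75 ± 0.057 (0.097, adjusted p = 0.0739) and passed without control replicate 1 (0.13, 0.0296), without shRNA replicate 1 (0.13, 0.0292) and after quantile normalization (0.11, 0.0105). Another, 1425906_a_at, rose by 0.35 (SE 0.056) and 1442226_at fell by 0.39 (SE 0.047).

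Their co-receptors, the neuropilins, were both higher. Nrp1, which also binds vascular endothelial growth factor, stood at 10.31, 9.97 and 10.04 in controls and at 11.03, 11.00 and 10.94 in shRNA samples. It rose by 0.88 (SE 0.077), or 1.84-fold (adjusted p = 8.21e-07), and its other 2 tested probe sets rose by 0.60 and 0.76. Nrp2 rose by 0.87 (SE 0.068, adjusted p = 2.86e-07) on its brightest probe set, 1435349_at, from 10.22, 10.19 and 10.30 to 11.02, 11.02 and 11.27. Its other 2 tested probe sets stood at 9.29 and 9.31 (1426528_at, adjusted p = 0.896) and at 9.02 and 9.07 (1456778_at, adjusted p = 0.648), so most of the Nrp2 probe sets did not follow.

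Plexins, the signalling receptors for these ligands, shifted little: of 8 tested, 3 were called higher and 2 lower, none by more than 0.35. Plxnb1, the receptor of Sema4d, fell from 8.64, 8.78 and 8.71 to 8.45, 8.27 and 8.43, by 0.33 (SE 0.085, adjusted p = 0.00569). Its second probe set was at 8.03 in both groups (adjusted p = 0.999), and the averaged probe sets did not pass (-0.16, 0.114). Plxnb3 also fell (-0.35, SE 0.12, adjusted p = 0.0327), with overlapping arrays. It missed the threshold without control replicate 1 (-0.29, 0.0911) or 2 (-0.31, 0.102), without shRNA replicate 1 (-0.32, 0.0744) or 2 (-0.28, 0.118), and without the filter (-0.35, 0.0505). Plxnb2, a B-type plexin that binds Sema4c, was at 10.71, 10.74 and 10.79 in controls and at 10.88, 10.89 and 10.87 in shRNA samples. Its rise of 0.13 (SE 0.046, adjusted p = 0.0300) was smaller than those above. It did not pass when any array except control replicate 3 was left out, with adjusted p of 0.0588 to 0.0839 and differences of 0.11 to 0.13. With the arrays centred it was 0.066 (0.274). Plxna2 rose by 0.13 (SE 0.046, adjusted p = 0.0258), a call lost without control replicate 1 (0.11, 0.0639) or shRNA replicate 2 (0.11, 0.108), after centring (0.069, 0.241) and after quantile normalization (0.094, 0.108). Plxna1 likewise (0.13, adjusted p = 0.0304) lost its call without control replicate 2 (0.091, 0.141), shRNA replicate 1 (0.12, 0.0837) or 3 (0.10, 0.106), and after centring (0.062, 0.278). Its second tested probe set stood at -0.081 (0.581), and the averaged probe sets at 0.022 (0.796). Plxna3 and Plxna4 did not pass, and Plxnd1 (0.19, adjusted p = 0.0575) passed only in 3 alternatives, among them without control replicate 1 (0.28, 0.00478).

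Among netrin receptors, Unc5c, which mediates repulsion by netrin, had the second largest increase of the members. It stood at 8.60, 8.40 and 8.34 in controls and at 10.12, 10.02 and 10.08 in shRNA samples. It rose by 1.63 (SE 0.079), or 3.09-fold (adjusted p = 5.88e-09), and its other probe set rose by 1.21 from a control mean of 6.27, below the lowest tested mean of 6.50. Neo1, neogenin, fell a little on bright probe sets, from 11.36, 11.20 and 11.25 to 11.00, 11.09 and 11.10. The change was -0.20 (SE 0.052, adjusted p = 0.00535), with -0.23 on a second probe set. Dcc (-0.23, adjusted p = 0.133) and Unc5a (-0.051, 0.730) did not pass. Unc5b did not pass either on its brightest probe set (0.046, 0.724), while its dimmer one rose by 0.31 (0.0481).

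The netrins rose where they could be tested. Ntn4, a basement membrane netrin that binds laminin, went from 9.70, 9.55 and 9.56 to 10.58, 10.50 and 10.79, by 1.02 (SE 0.077), or 2.03-fold (adjusted p = 2.03e-07). Ntn1, the classical diffusible netrin, went from 8.89, 8.92 and 8.69 to 9.25, 9.41 and 9.23, by 0.46 (SE 0.084, adjusted p = 0.000444). Ntn3, reported as a neogenin ligand in myoblasts, was left out by the filter at 6.46 ± 0.052 and 6.30 ± 0.079.

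The neogenin ligands of the Rgm family moved in opposite directions. Rgma stood at 8.31, 8.44 and 8.47 in controls and at 7.46, 7.52 and 7.50 in shRNA samples, and fell by 0.91 (SE 0.091), a 1.88-fold difference (adjusted p = 2.58e-06). Rgmb stood at 11.53, 11.43 and 11.43 in controls and at 11.66, 11.68 and 11.77 in shRNA samples. It rose by 0.24 (SE 0.046, adjusted p = 0.000713), and 4 of its other 5 probe sets rose, by 0.26 to 0.38.

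Of the 3 tested Slits 1 rose. Robo1 was the only Robo receptor tested, and it rose, while Robo2, Robo3 and Robo4 were left out by the filter. Slit2 rose by 0.35 (SE 0.067, adjusted p = 0.000698), from 10.21, 10.25 and 10.27 to 10.60, 10.45 and 10.73, although its dimmer probe set did not pass (0.027, 0.857). Slit1 (-0.0098, 0.953) did not pass. Slit3 (-0.065, 0.785) did not pass either, with shRNA arrays at 6.67, 7.55 and 6.99 on either side of the controls at 7.17, 7.11 and 7.12. Robo1 stood at 13.07, 12.86 and 12.93 in controls and at 13.07, 13.13 and 13.19 in shRNA samples. Its rise of 0.18 (SE 0.052, adjusted p = 0.0104) was not past the threshold without control replicate 2 (0.13, 0.0506) or with the arrays centred (0.12, 0.0575). A dim probe set rose by 0.40, and another by 0.48 with overlapping arrays, from a control mean of 6.40, below 6.50.

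Agreement between probe sets was mixed. Of 31 members with more than 1 tested probe set, 11 had all of them past the threshold in the same direction, among them Epha4, Nrp1, Sema5a and Sema6a. In 2, Efnb2 and Sema3e, probe sets passed in both directions, in 13 some passed and some did not, and in 5 none passed. The 11 include Ntn4, Unc5c and Robo1. Each of these had a probe set that was tested only through its higher shRNA values. Its control mean was 6.13, 6.27 and 6.40, below the lowest tested mean of 6.50. Probe sets more than 0.7 apart were found in 4 genes, and the log2 ratio between their highest and lowest probe set was compared between groups. It differed by 1.63 in Efnb2, 1.34 in Sema7a, 0.85 in Nrp2 and 0.74 in Sema3e. Each had a two-sided exact permutation p = 0.1, not adjusted over the 4. That p is the smallest possible with 3 against 3 arrays. The genes were picked for this gap, so these values are a description.

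**Figure D4:**
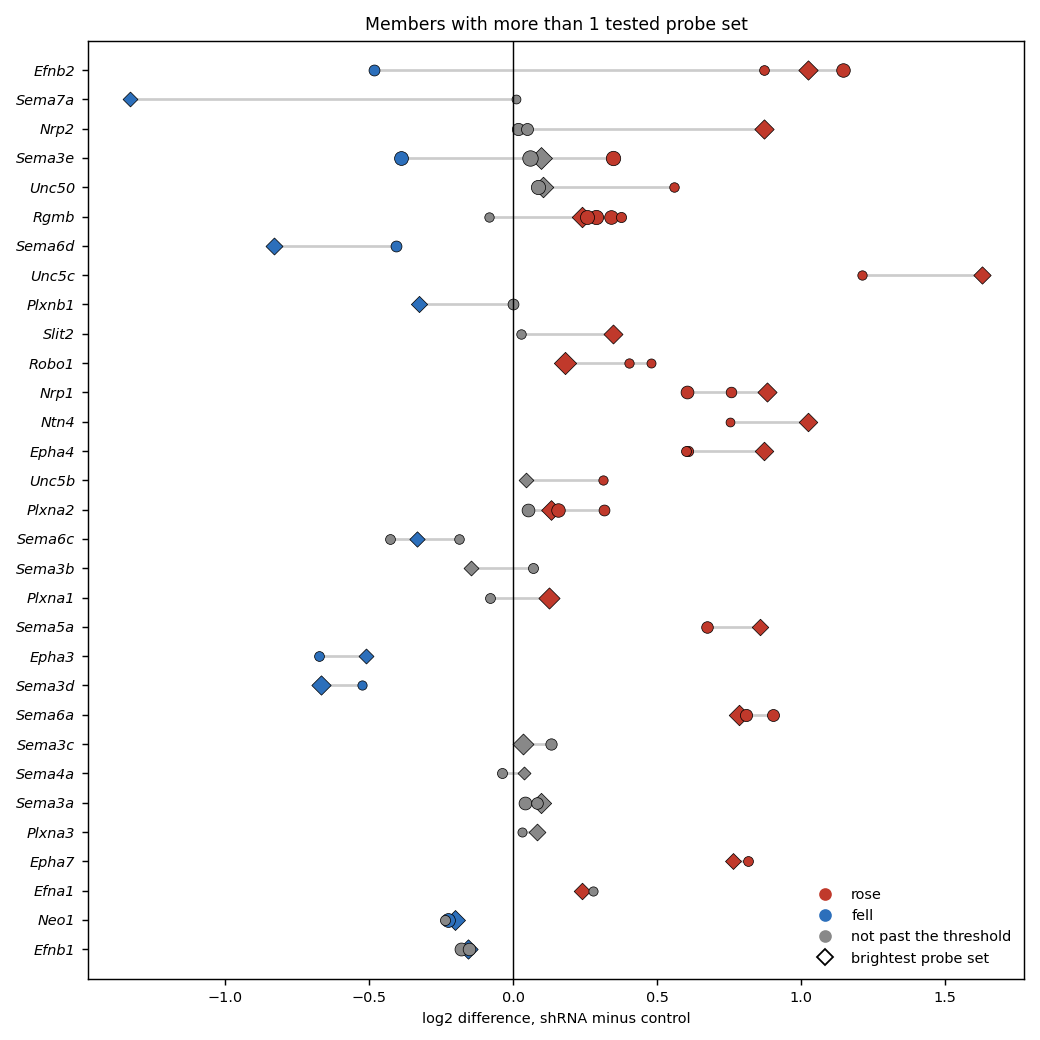
Log2 difference, shRNA minus control, of every tested probe set for the 31 members with more than 1, ordered by the gap between them; diamonds mark the probe set that represents the gene and larger symbols are brighter. Efnb2 and Sema3e have coloured points on both sides of 0, and Nrp2 has 1 red point at 0.87 and 2 grey points near 0.

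The 19 members left out by the filter had means of 4.80 to 6.47, at the dim end of the array's range. They were Efnb3, Epha5, Epha6, Epha8, Epha10, Ephb1, Ephb3, Ephb6, Ntn3, Plxnc1, Robo2, Robo3, Robo4, Sema3f, Sema4f, Sema4g and Unc5d, with Unc5cl and Plxna4os1. In a fit without the filter, where 33.6% of 45037 probe sets passed, 4 of them rose and 1 fell. Efnb3 rose by 0.90 (6.01 ± 0.067 to 6.92 ± 0.29, adjusted p = 0.000264), Robo2 by 0.80 (5.04 to 5.84), Sema4g by 0.52 and Ephb6 by 0.45, and Ephb3 fell by 0.46. Unc50, tested but no guidance gene, did not pass on its brightest probe set (0.10, adjusted p = 0.169). It passed without control replicate 1 (0.15, 0.0454) and with its probe sets averaged (0.25, 0.00240). A dimmer Unc50 probe set, 1435812_at, rose by 0.56 (0.00106).

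Genes that carry guidance signals inside the cell, or help receptors at the membrane, came from a list of 61, of which 52 were tested. Past the threshold were 18 upward (34.6%, beside 35.7% of all tested genes) and 19 downward (36.5%, beside 22.8%), leaving 15. The median difference was -0.0086, beside 0.046 for all tested genes. With the arrays centred, 13 rose and 23 fell. The Slit-Robo GTPase-activating proteins Srgap1 (-0.81), Srgap2 (-0.75) and Srgap3 fell. Srgap3 went from 10.89 ± 0.056 to 10.02 ± 0.092, a change of -0.88 (SE 0.059). Flrt1, a membrane protein that binds Unc5 receptors, went from 10.85 ± 0.092 to 9.49 ± 0.054, a change of -1.36 (SE 0.061). It was the single gene of this list to differ at least 2-fold. Mical2, an actin-oxidizing enzyme of the family that acts below plexins, fell by 0.89 (SE 0.043), and the actin-binding protein Ablim1 by 0.77 (SE 0.043). The actin regulators Enah, Vasp and Evl fell too (-0.14, -0.29 and -0.50). Plexin-binding Rnd GTPases rose, Rnd3 by 0.86, Rnd1 by 0.80 (from a control mean of 6.37, below 6.50) and Rnd2 by 0.29. Among Vav exchange factors, which act below Eph receptors, Vav3 rose by 0.85 and Vav2 fell by 0.74. The GTPases Rac1, Cdc42 and Rhoa did not pass.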

How the data were processed

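Affymetrix mouse genome arrays, 3 control and 3 shRNA, were used as the authors deposited them: normalized log2 signals per probe set. The deposited values show the log2 scale by their range (4.48 to 14.6, median 7.23 on the array of control replicate 1). PLIER and MAS5 stand in the submitters' processing notes, without roles. The background correction is not given in the sources used here, and detection calls were not used here. Of 45101 probe sets, 34958 had 1 gene symbol in GEO's platform annotation, 932 several and 9211 none. All 167 member probe sets matched a gene of GRCm38.p6 by identifier. After removing 64 control probe sets and the 40% with the lowest mean (18015), 27022 were tested with limma 3.58.1 in R 4.3.3 (lmFit, eBayes with trend, no covariates) and Benjamini-Hochberg adjustment over all of them. The number of arrays limits the precision. Calculations were tested on simulated data.

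Named genes were 12 fixed genes, up to 3 with the largest difference per subfamily among called genes without overlap, and up to 5 of the effector list with the smallest p, 35 in all, of which 1 effector is not reported here. Other members are named to account for them; effectors and markers beyond these were chosen after their values were seen. Members and lists were chosen with earlier results of these data known. Of 61 effector genes, 3 had no named probe set and 6 were left out by the filter. Promoters came from a RefSeq table (GRCm38.p6), in which 61 of 73 members matched. No genome build is given for the array values.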

Additional observations from a re-analysis of the deposited data

How the results depend on the processing

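Across the 15 alternatives, 22 of the 35 called members kept direction and call wherever they were tested, among them all those that differed at least 2-fold except Sema7a. With the second brightest probe set of a gene, Sema7a stood at 0.011 (adjusted p = 0.950). The count of lower members, 10, was 5 with the lowest 60% of probe sets left out, where fewer members were tested, and 6 with the second brightest probe set. Leaving out each array in turn gave 21 to 26 higher and 8 to 10 lower members, and 14 to 19 higher and 18 to 20 lower effectors. Centring the arrays and quantile normalization shifted the difference, shRNA minus control, of all tested probe sets by a median of -0.064 and -0.020. They gave 20 and 23 higher members and 11 and 10 lower. Effectors became 13 higher and 23 lower with centring. With centring or quantile normalization Efnb2 and Ntn4 fell under 2-fold, leaving 6 members at that size (11.1%). Control replicates with the same number as shRNA replicates did not deviate together (correlations of -0.13, -0.062 and 0.031). Replicates with different numbers gave correlations of -0.11 to 0.14. Each group held too few arrays for these values to show whether the replicate numbers pair the samples. With the replicate number as a block, 24 members were higher and 9 lower, with 17 higher and 19 lower effectors; Plxnb2 (0.13, adjusted p = 0.0586) and Plxnb3 (-0.35, 0.0565) missed the threshold. Signal over background, which was not measured here, limits the dim members most.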

Other observations

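E-boxes, the CANNTG letters that myogenic and other helix-loop-helix factors read, were counted in the 250 bases before each annotated start in the RefSeq table. The motif is its own reverse complement, so each match holds for both strands. Of all 32851 promoters 66.2% held at least 1 match. Among members that rose, 8 of 31 promoters did (25.8%), among members that fell 6 of 11 (54.5%), and among those not past the threshold 8 of 20 (40%). The median GC share was 64.8%, 60% and 64.6% in these 3 groups and 52.4% in all promoters, so members as a whole had richer GC than the rest. The CAGCTG form, a subset of CANNTG, was in 13.0% of all promoters, in 1 of 31 for members that rose, in 3 of 11 for those that fell and in 1 of 20 for those not past the threshold. The palindrome TGACGTCA, searched after the Epha2 sequence had been seen, was in 1.55% of all promoters and in 1 of 31 for members that rose, that of Epha2. Printed promoters (Epha2, Efnb2, Sema7a) each hold a marked motif, while those of Efna2, Unc5c and Ntn4, also past 2-fold, hold none. Some genes have several promoters in the table, and a match says nothing about binding.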
